A study of Mus musculus with 19 samples.

Results

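The genes described here are the odorant receptors (symbols beginning with Olfr) and the vomeronasal receptors (Vmn1r and Vmn2r) on a mouse expression array hybridised with RNA from dissected dendrites. They were chosen by symbol alone, but the choice was made with earlier results of these data known. The array measured 71 of them among 18193 genes: 39 Olfr, 25 Vmn1r and 7 Vmn2r genes. Symbols beginning with V1r or V2r, the older names of the vomeronasal families, matched 0 genes. Because neurons of the hippocampus are not known to use these receptors as a class, they were read as a gauge of unspecific signal.

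Odorant receptors are G protein-coupled receptors of the nasal epithelium, where each olfactory sensory neuron expresses 1 receptor allele and signals through Gnal, Adcy3 and a cyclic nucleotide-gated channel. Vmn1r and Vmn2r receptors detect small pheromones and peptides in the vomeronasal organ, where they signal through Gnai2 or Gnao1, Plcb2 and Trpc2. A few odorant receptors are also known from other tissues, such as sperm, blood vessels and the carotid body.

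Dendrites were severed by pipette from hippocampal neurons cultured from E18 embryos of the inbred mouse strains Balb/c and C57BL/6, at 14 days in culture and without treatment. Each of the 19 arrays carried 1 pool of 100, 200 or 400 dendrites, with 5 arrays for Balb/c (2, 1 and 2 pools) and 14 for C57BL/6 (4, 5 and 5 pools). The labels name no genetic change in either strain, and a pool mixed processes of several cells, a few of which could be axons. The sources call the pools biological replicates without saying whether they came from separate cultures or animals, so that p-values measure the spread between pools. An array is named below by strain, dendrites per pool and replicate, as in C57BL/6 200-1.

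Values are log2 expression values of the array, and a gene's value is the median of its probe sets that carry a single symbol. Probe sets differ in how strongly they bind their targets, so that an order of genes by array value is an order of signals and not of transcript amounts. In pooled dendrites, a smaller share of some material and less RNA per dendrite cannot be told apart.

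The DNA just upstream of the receptor genes differed in base composition from that of genes in general. RefSeq gave a promoter window of 250 bases before the annotated start for 58 of the 71 receptors, in 60 windows, on assembly GRCm38.p6. The median GC content of these windows was 40.6%, against 52.4% over all 32841 windows in the table. CpG pairs, which are dense at many broadly used promoters, numbered 1 in the median receptor window and 6 in the median of all windows. No CpG pair was found in 38.3% of the receptor windows and in 7.86% of all windows. The motif search covered both strands. TATAAA, the letters of a TATA box, occurred in 28.3% of receptor windows and 12.4% of all windows, and TAATTA, a homeodomain core, in 10% and 4.84%. CCCNNGGG, which resembles the core bound by Ebf factors, occurred in 3.33% and 11.8%. These are counts of letters and not of bound sites.

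The windows of 3 genes are shown because their genes carry the results below: Olfr15 had the highest signal of all receptors, Vmn1r50 the lowest, and Olfr749 the strain difference with the smallest adjusted p. They lie at chr16:3838725-3838974 on the plus strand for Olfr15, chr14:50744325-50744574 on the minus strand for Olfr749 and chr6:90107025-90107274 on the plus strand for Vmn1r50. Each is written 5′ to 3′ on the strand of its gene, with CpG pairs in capitals.
Olfr15: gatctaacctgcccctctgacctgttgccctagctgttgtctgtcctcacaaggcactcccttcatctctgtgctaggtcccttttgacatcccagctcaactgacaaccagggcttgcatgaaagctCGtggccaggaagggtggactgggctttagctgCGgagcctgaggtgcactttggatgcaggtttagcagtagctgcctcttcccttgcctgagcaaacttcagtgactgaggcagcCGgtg
Olfr749: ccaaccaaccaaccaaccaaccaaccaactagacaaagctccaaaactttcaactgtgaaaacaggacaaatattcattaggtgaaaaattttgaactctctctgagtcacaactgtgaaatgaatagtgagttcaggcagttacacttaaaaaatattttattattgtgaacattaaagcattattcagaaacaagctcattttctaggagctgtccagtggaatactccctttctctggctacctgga
Vmn1r50: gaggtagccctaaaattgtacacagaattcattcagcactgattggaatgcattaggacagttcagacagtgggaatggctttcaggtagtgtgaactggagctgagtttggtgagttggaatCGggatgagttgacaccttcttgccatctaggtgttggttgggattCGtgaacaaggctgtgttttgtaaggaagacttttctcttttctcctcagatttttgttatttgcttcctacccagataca
The Olfr15 window had a GC content of 56% and 3 CpG pairs, the Vmn1r50 window 43.2% and 2, and the Olfr749 window 36.8% and 0. None of the 3 windows held any of the searched motifs.

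Most receptors gave low signal, but the family was not uniform. By the percentile of a receptor among all genes of an array, averaged over the 19 arrays, 53 of the 71 lay below the 50th percentile and 28 at or below the 25th. A total of 16 receptors lay under the median gene on every array, and 6 lay above it on every array. At the upper end, 8 receptors lay above the 80th percentile. The next one, Vmn2r1, had a mean percentile of 67.1. By array values, the reading of these genes as a floor could apply best to the 28 at or below the 25th percentile. These 28 were picked by that same level, so their low place is no evidence for the reading. The reading did not hold for the 8 highest, and others, such as Vmn2r1, also lay above the 50th percentile. The receptor median stood at percentiles of 41.3 to 45.7 in the Balb/c arrays and 18.8 to 41.7 in the C57BL/6 arrays. As a group, the receptors were thus nearer to the middle of all genes than to a floor in Balb/c.

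Olfr15, a broadly tuned odorant receptor, gave the strongest signal. Its values were 12.33, 12.16, 11.89, 12.31 and 12.35 in the Balb/c arrays 100-1, 100-2, 200-1, 400-1 and 400-2, and ran from 11.55 over a median of 11.82 to 12.56 in C57BL/6. The strains overlapped throughout, and Olfr15 was in the top 5% of genes on all 19 arrays. The strain means were 12.21 ± 0.19 (SD, n = 5) and 11.93 ± 0.27 (SD, n = 14), with an adjusted p of 0.278. In the RefSeq gene order Olfr15 stands between Gm41409 and Zfp174, away from other measured receptors, and it was measured by 1 probe set.

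The other 7 receptors with high signal varied more between pools. Olfr64, which neighbours Olfr65 and Olfr66 in the genome, measured 9.67, 9.98, 10.40, 11.35 and 10.68 in the Balb/c arrays and 9.10 to 10.30 in C57BL/6, with a median of 9.83. It reached the top 5% of genes on 7 arrays, while its neighbours had lower strain means, 7.40 and 7.06 for Olfr66 and 7.34 and 6.57 for Olfr65. The remaining 6 had strain means in Balb/c and C57BL/6 of 9.19 and 9.71 (Olfr75-ps1, an odorant receptor pseudogene by name), 9.37 and 8.75 (Olfr558), 9.40 and 8.66 (Vmn1r65), 8.22 and 9.24 (Vmn1r49), 8.84 and 8.38 (Vmn1r148), and 8.61 and 8.57 (Olfr672). None of these 8 passed the test between strains. Nearest to the threshold were Vmn1r65, with a difference of 0.735 (adjusted p = 0.0528), and Olfr64, with 0.701 (adjusted p = 0.054), both higher in Balb/c.

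The lowest signals came from Vmn1r50, Vmn1r45, Vmn1r11 and Olfr315. Vmn1r50 measured 4.92, 4.66, 4.32, 4.21 and 3.35 in Balb/c and 2.73 to 4.53 in C57BL/6, where the median was 3.41. Vmn1r45 averaged 4.79 in Balb/c and 4.6 in C57BL/6, Vmn1r11 averaged 4.49 and 4.94, and Olfr315 averaged 5.20 and 4.28. Vmn1r50 and Vmn1r45 belong to a run of 13 measured Vmn1r genes, from Vmn1r40 to Vmn1r54, that lie within 5 genes of each other in the RefSeq order. Means of strain means in that run spanned 3.87 to 8.73, the upper value being that of Vmn1r49. Neighbouring receptors thus covered a wide range of levels.

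**Figure D1:**
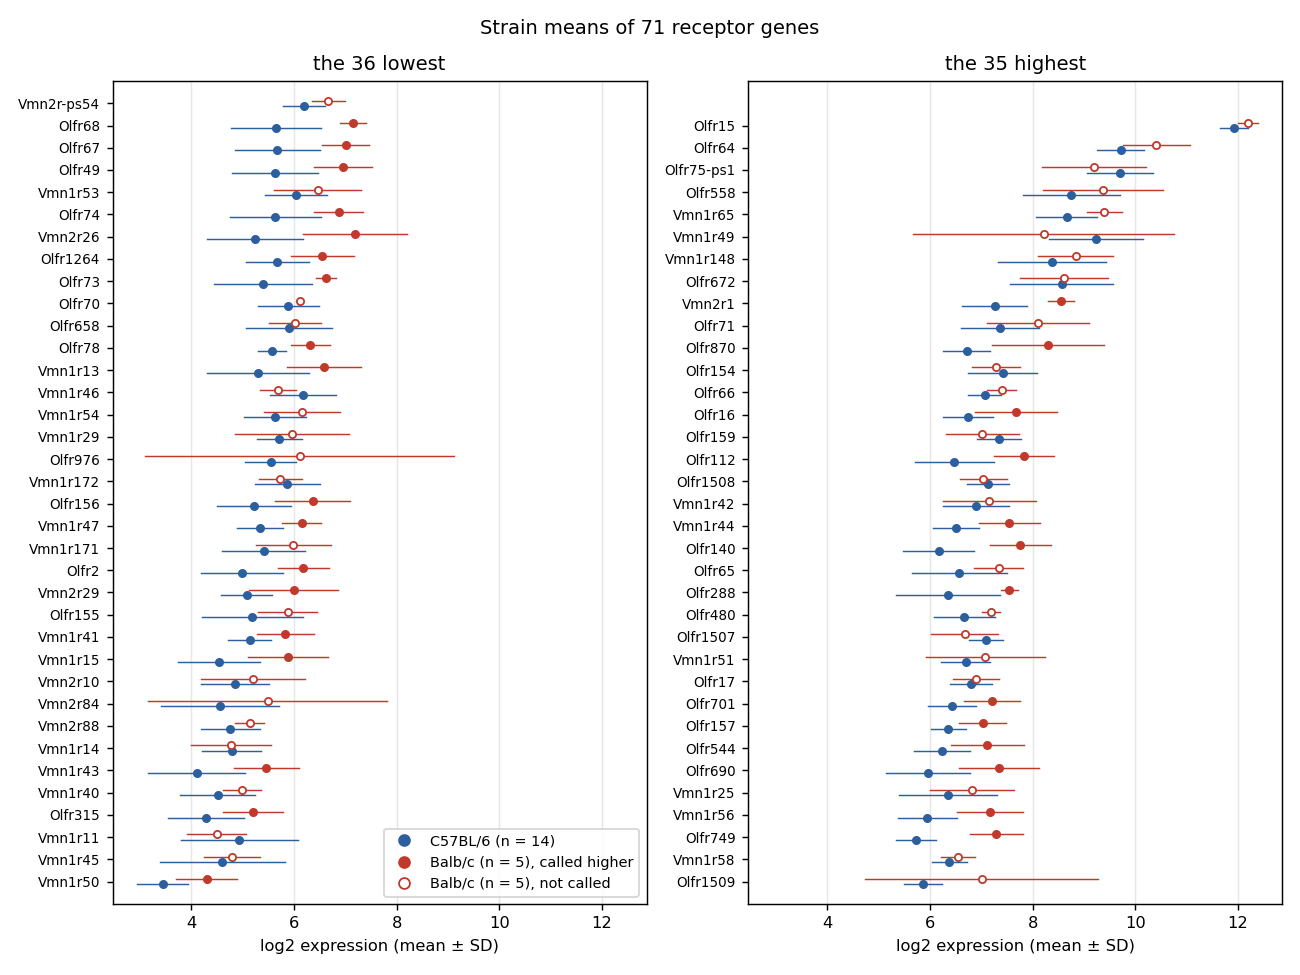
Strain means of the 71 receptor genes on the log2 scale, ordered by the mean of both strain means, with bars for the SD over 5 Balb/c (red) and 14 C57BL/6 (blue) arrays. Filled red points mark the 31 receptors called higher in Balb/c. Olfr15 stands apart at the top, and the widest bars in Balb/c belong to Olfr976, Vmn1r49, Vmn2r84 and Olfr1509.

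Some receptors were high on a single array and low on all others. Olfr976 measured 11.45 in Balb/c 100-1 and between 4.25 and 6.47 on the other 18 arrays. Olfr1509, from the genomic cluster that also holds Olfr1507 and Olfr1508, measured 10.95 on the same array and 5.23 to 6.56 elsewhere. Both thus jumped into the top 5% of genes on 1 pool of 100 dendrites alone. Vmn1r45 measured 8.17 in C57BL/6 200-4, with values no higher than 5.90 on the other arrays.

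Other receptors split the Balb/c pools. Vmn2r84 measured 8.17 and 7.68 in the pools of 100 dendrites, and 2.90, 4.75 and 3.94 in those of 200 and 400. Vmn1r49, a vomeronasal receptor for a urinary ketone, was low in other pools, at 5.503 in Balb/c 100-2 and 5.4 in 400-1 but 9.55, 10.27 and 10.37 in the other 3. An SD above 2 over the Balb/c arrays was found for 4 receptors (5.63%), namely these 2, Olfr976 and Olfr1509, and for 249 of all genes (1.37%). Olfr1509 was singled out after its values were seen. In C57BL/6 the largest SDs were those of Vmn1r45 (1.22), Vmn2r84 (1.15), Vmn1r11 (1.15) and Vmn1r148 (1.05).

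The level of the receptors as a group differed between arrays. Their median in the Balb/c arrays was 6.72, 6.82, 6.64, 6.76 and 6.82, and the mean of these medians was 6.75 ± 0.08 (SD, n = 5). In C57BL/6 the medians ran from 5.73 to 6.65 with a mean of 6.04 ± 0.29 (SD, n = 14). C57BL/6 200-1 had 6.65 and 400-1 had 6.52, within or close to the Balb/c range, while the other 12 lay between 5.73 and 6.33, with a mean of 5.95 ± 0.19 (SD, n = 12). The median of all genes moved less, at 6.94 ± 0.05 in Balb/c and 6.79 ± 0.07 in C57BL/6.

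Read against all genes of the same array, the receptors stood nearer to the middle in the same arrays. Their median lay 0.13 to 0.25 below the median gene in Balb/c, 0.27 and 0.28 below it in C57BL/6 200-1 and 400-1, and 0.58 to 1.02 below it in the other 12. As a percentile among all genes, the receptor median stood between 41.3 and 45.7 in Balb/c, at 41.7 and 41.3 in C57BL/6 200-1 and 400-1, and between 18.8 and 30.9 in the rest. Between 26 and 33 receptors exceeded the median gene in a Balb/c array, and between 16 and 28 in the 12 C57BL/6 arrays. These ranges overlap for the count and not for the percentile.

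**Figure D2:**
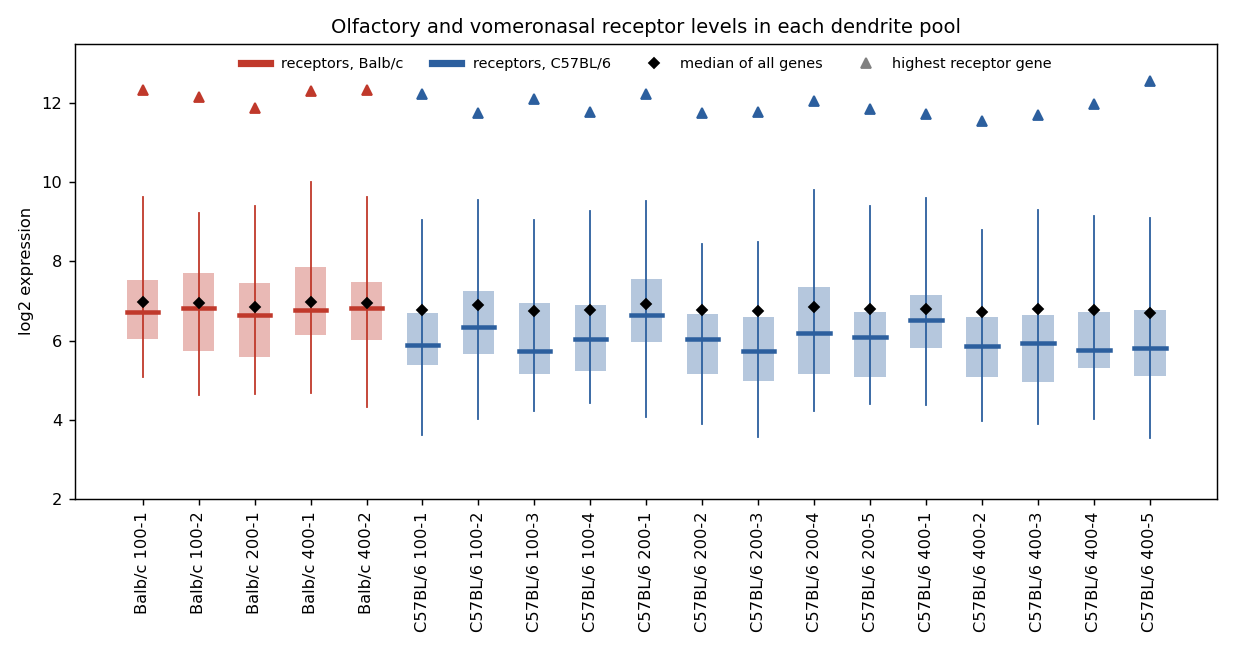
Receptor levels on each of the 19 arrays on the log2 scale. Boxes span the quartiles of the 71 receptors with a thick line at their median, thin lines run from the 5th to the 95th percentile, diamonds mark the median of all 18193 genes and triangles the highest receptor. The receptor median nears the diamond in Balb/c and in C57BL/6 200-1 and 400-1.

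The array holds 3′ and 5′ control probe sets for Actb and Gapdh, whose gap widens as RNA is shortened, and the gap of Actb moved with these levels while that of Gapdh did not. For Actb it ran from -0.70 to 2.27 log2 units in Balb/c, was 1.17 and 1.65 in C57BL/6 200-1 and 400-1, and ran from 3.27 to 5.57 in the other 12. For Gapdh the ranges overlapped, with 1.48 to 4.72 in Balb/c, 5.00 in C57BL/6 200-1, 3.15 in 400-1 and 2.39 to 3.80 in the other 12. The number format of the deposited columns also sorted with strain. All 5 Balb/c columns and 4 of C57BL/6 (100-1, 100-2, 200-1 and 400-1) carried up to 14 decimals, and the other 10 carried up to 9. The receptor medians of these 4 C57BL/6 arrays ran from 5.89 to 6.65, and those of the 10 from 5.73 to 6.19. The meaning of the format is not stated, and the part of any of these measures in the receptor levels was not tested.

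Between the strains, receptor values were higher in Balb/c. The test called 31 of the 71 receptors (43.7%) higher in Balb/c and 0 lower, and left 40 uncalled, at an adjusted p under 0.05 in a model fitted over all genes. Among all 18193 genes, 21.1% were called higher and 11.4% lower. No receptor was lower at an unadjusted p under 0.05 either, and 34 were higher. The methods' t-test was run here with equal variances on the values as deposited, so without the centring and scaling that the methods describe. It put 28 of the 71 receptors and 3760 of all 18193 genes higher at the same threshold. At the stricter false discovery rate of the methods it put 1 receptor, Olfr749, and 20 of all 18193 genes higher. The difference was positive for 61 receptors.

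The median gene was itself 0.22 higher in Balb/c, and the median receptor 0.69 higher, so that the receptors stood 0.47 above the median gene. Called differences ran from 0.66 to 1.95 as deposited and from 0.45 to 1.73 relative to the median gene. Receptors are mostly dim, and dim genes leaned the same way. Of the 9097 genes at or below the median gene, 23.5% were called higher and 4.77% lower, beside 21.1% and 11.4% of all genes. Of the receptors in that range 28 of 53 (52.8%) were called higher. Of those above it 3 of 18 (16.7%) were, namely Olfr16, Olfr870 and Vmn2r1. Of the 3837 genes called higher, 2136 lay at or below the median gene, so 21.1% is not the matched share for brighter genes. With 18 receptors the 16.7% is not read as a difference.

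The calls depended on how arrays were grouped. With the number format as a block, 1 receptor (Olfr749) was called higher, where 0.649% of all genes were. The median receptor difference was then 0.50 against 0.13 for the median gene. An unadjusted p under 0.05 in that direction was found for 10 of the 71 receptors, a share near the 13.3% of all genes. Within the 9 columns of the long format 0 receptors were called. Without Balb/c 400-1 the count was 18, all of them among the 31. Without Balb/c 200-1, C57BL/6 200-1 and C57BL/6 400-1 it was 34, which held all 31. For the long format and the left-out arrays, shares of all genes are not given, so these changes cannot be read as particular to the receptors.

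Olfr749 showed the clearest separation. It measured 7.24, 7.37, 6.65, 8.08 and 7.13 in Balb/c and between 5.17 and 6.21 in C57BL/6, with a median of 5.68. Every Balb/c array lay above every C57BL/6 array, which held for no other receptor (1.41% of the 71) and for 0.797% of all genes. The difference was 1.56 ± 0.24 (SE), or 1.35 relative to the median gene, with an adjusted p of 0.000188. With the number format as a block the difference was 1.19.

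The other called receptors overlapped between strains. In 26 of the 31 called receptors the highest C57BL/6 value came from 200-1 or 400-1, and this was so for 2252 of the 3837 genes called higher (58.7%), a count made after the values were seen. Olfr870 measured 9.60, 6.82, 7.73, 9.05 and 8.33 in Balb/c and 6.28 to 7.90 in C57BL/6, where 200-1 held the highest value. Olfr140 measured 8.08, 8.01, 6.71, 8.13 and 7.86 in Balb/c and 5.16 to 7.57 in C57BL/6, again with 200-1 at the top. Their differences, 1.59 for each, had adjusted p-values of 0.00159 and 0.00165. In Olfr68, the C57BL/6 arrays 200-1 and 400-1 had 7.06 and 7.41 in the range of the Balb/c values, 6.71 to 7.37, while the C57BL/6 median was 5.48 (difference 1.497 ± 0.38 SE, adjusted p = 0.00534). Probe sets that Olfr68 shares with Olfr69 were not used, and they went both ways. One had means of 8.791 in Balb/c and 7.685 in C57BL/6, another 7.746 and 8.364.

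The vomeronasal receptors among the named calls gave the same picture. Vmn2r26, a receptor of the class that detects peptides, had the largest difference of all receptors, 1.95 ± 0.46 (SE, adjusted p = 0.0033). Its Balb/c values were 7.37, 8.38, 5.57, 7.15 and 7.47, and its C57BL/6 values ran from 3.48 over a median of 5.22 to 7.09, reached by 400-1. Vmn2r1, of a subfamily found together with other Vmn2r receptors in the same cells, lay between 8.25 and 8.89 in Balb/c. In C57BL/6 its median was 7.03, but 200-1 and 400-1 had 8.39 and 8.59, inside the Balb/c range (difference 1.29, adjusted p = 0.00295). Vmn1r56 and Vmn1r44 differed by 1.22 and 1.05.

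No receptor was called lower in Balb/c. The 3 with the smallest p in that direction were Olfr1507, the odorant receptor also known as MOR28, with means of 6.67 in Balb/c and 7.10 in C57BL/6, Vmn1r46 with 5.69 and 6.18, and Vmn1r49 with the split values given above. Their adjusted p-values were 0.187, 0.221 and 0.249.

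**Figure D3:**
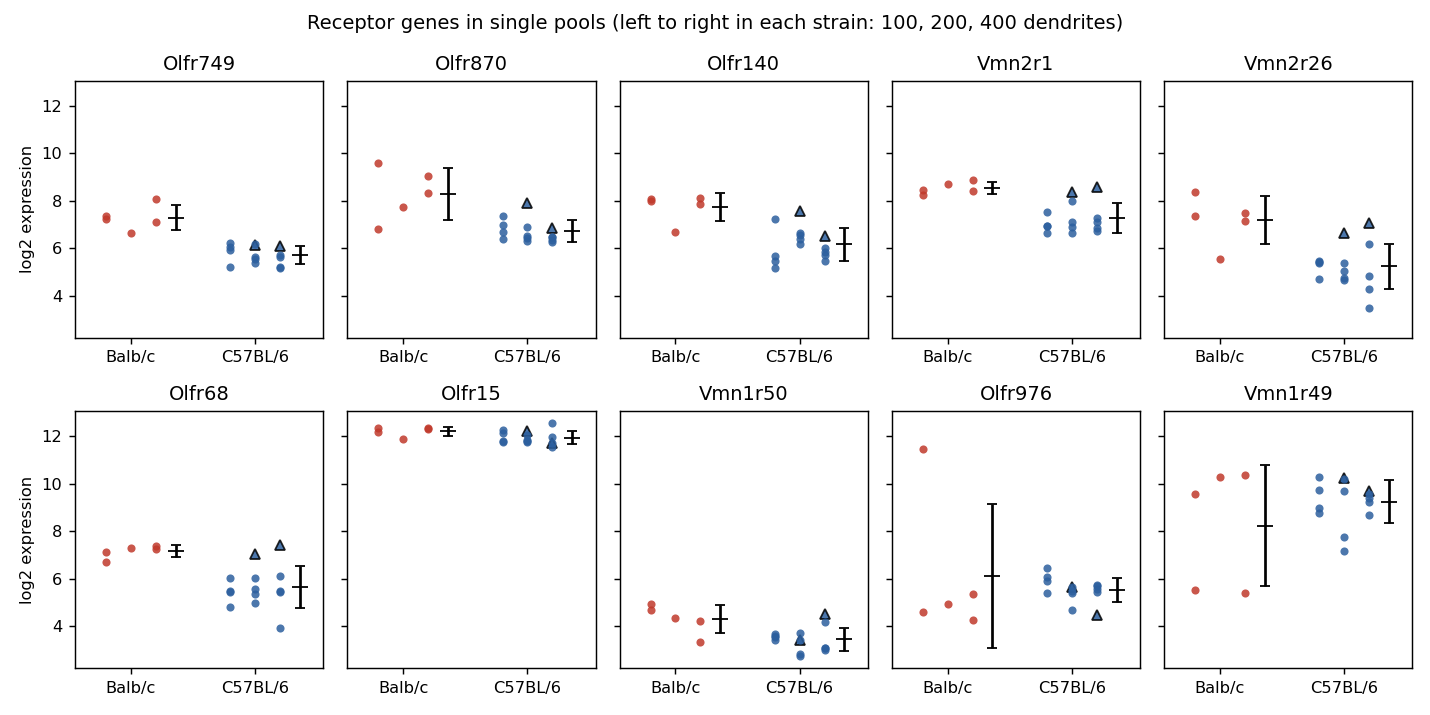
Log2 expression of 10 receptors in single pools, Balb/c in red and C57BL/6 in blue, placed from left to right within each strain by pools of 100, 200 and 400 dendrites. Black bars give the mean and SD per strain, and triangles mark C57BL/6 200-1 and 400-1. Olfr749 separates the strains, Vmn2r1 and Olfr68 show the triangles among the Balb/c values, and Olfr976 shows 1 Balb/c pool at 11.45.

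By family, 20 of 39 Olfr genes, 8 of 25 Vmn1r genes and 3 of 7 Vmn2r genes were called higher in Balb/c, with 0 lower in each, beside 21.1% higher and 11.4% lower among all genes. As shares these were 51.3%, 32% and 42.9%. Median differences relative to the median gene were 0.55, 0.25 and 0.70. Whether the families differed from each other was not tested. Olfr genes also had the higher array medians, 7.16 ± 0.14 in Balb/c and 6.32 ± 0.35 in C57BL/6, against 6.05 ± 0.25 and 5.80 ± 0.29 for Vmn1r (SD, n = 5 and 14).

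**Figure D4:**
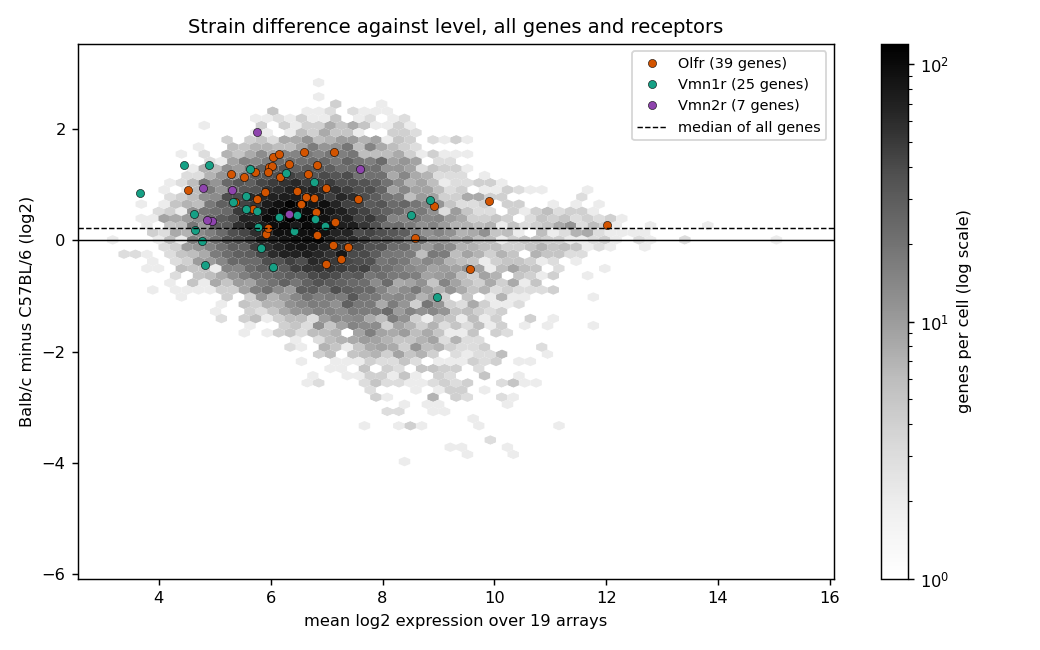
Balb/c minus C57BL/6 difference (log2) against mean level over 19 arrays for all 18193 genes (grey, darker where more genes lie) and for the receptors by family. The dashed line is the median difference of all genes, 0.22. Most receptors lie at low to middle levels and above the dashed line.

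Calls were spread over groups of receptors that sit together in the genome. In the run from Vmn1r40 to Vmn1r54, 5 of 13 were called higher, beside 21.1% of all genes and 31 of all 71 receptors. Of Olfr70, Olfr71, Olfr159, Olfr156, Olfr157 and Olfr155, 2 were called, of Vmn1r11, Vmn1r13, Vmn1r14 and Vmn1r15 also 2, and of Olfr64, Olfr65 and Olfr66 none. These groups were formed from gene order, and with so few genes each their counts are a description.

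Odorant receptors reported outside the nose were measured for 4 of 7 listed genes, and 3 of them were called higher in Balb/c, beside 31 of all 71 receptors and 21.1% of all genes. Olfr16, known from sperm, measured 7.87, 7.89, 6.59, 8.76 and 7.29 in Balb/c, against 6.12 to 7.64 in C57BL/6 (difference 0.94, adjusted p = 0.0198). Olfr544, known from fat and liver, had means of 7.12 and 6.24 (adjusted p = 0.0305), and Olfr78, known from the carotid body and blood vessels, 6.32 and 5.56 (adjusted p = 0.00793). Olfr558, known from blood vessels and adjacent to Olfr78 in the gene order, was higher in signal but not called, at 9.37 ± 1.17 and 8.75 ± 0.95 (SD, adjusted p = 0.329). All 4 differences were positive, as were those of 61 of the 71 receptors.

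Probe sets of the same receptor could differ. The 71 genes were measured by 80 probe sets, with more than 1 for 7 genes. The means of the 4 probe sets of Olfr78 spanned 3.25 log2 units, from 3.92 to 7.17, and those of the pair for Vmn2r29 spanned 2.87. For Vmn2r88 and Olfr701 the gaps were 0.15 and 0.06. The strain difference of Olfr66 changed sign between its probe sets, from -0.43 to 1.10.

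No receptor was called for pool size. The slope per doubling of dendrites, with strain as a covariate, was called for 0 of 71 receptors and for 0 of 18193 genes (0%). At an unadjusted p under 0.05, 1 receptor passed, against 4.67% of all genes. That receptor was Vmn2r84, at -0.88 ± 0.33 (SE) per doubling with an adjusted p of 0.959, and its values in the pools of 100 Balb/c dendrites stand above. Slopes of the 71 ran from -0.88 to 0.32, with a median of -0.02 against -0.01 for all genes.

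Other slopes with small p were 0.31 for Vmn1r54, 0.24 for Vmn2r29 and 0.19 for Olfr64, and, falling, -0.69 for Olfr976 and -0.30 for Vmn1r42. That of Olfr976 contains the 1 high pool of 100 dendrites. The interaction of strain and pool size was called for 0 receptors and 0 genes (0%), and at an unadjusted p under 0.05 for 1 receptor (Olfr66) and 3.79% of all genes.

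The partners that these receptors need in the nose were mixed in level. Of 15 measured genes of olfactory signalling (16 listed), 2 were called higher in Balb/c, Pde4a and Cngb1, and 1 lower, Slc12a2. These shares, 13.3% and 6.67%, stand beside 21.1% and 11.4% of all genes, and with 15 genes they are not read as a difference. The channel subunits Cnga2 and Cnga4 were low, with means of 5.71 and 5.46 in Balb/c and 5.04 and 5.09 in C57BL/6, at mean percentiles of 11.5 and 10. The highest 3 were Omp, the marker of mature olfactory neurons (7.81 and 8.11), Gnb1, a general G protein subunit (7.82 and 7.90), and Gng13 (7.80 and 7.56). None of the 6 measured markers of mature olfactory neurons was called in either direction.

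All 6 genes of vomeronasal signalling were measured and 0 were called. Gnao1, a G protein subunit abundant in brain, had means of 8.68 in Balb/c and 9.46 in C57BL/6, Plcb2 had 8.15 and 8.23, and Gnai2 had 7.83 and 8.34. The vomeronasal channel gene Trpc2 had 6.69 and 6.55. Of 13 measured genes of receptor choice and trafficking (15 listed), Ebf2 and Ebf3 were called higher (15.4%) and Lhx2 lower (7.69%). Beside 21.1% and 11.4% of all genes, these are again too few genes to read a difference. The 3 with the highest means were Bcl11b, Atf5 and Reep1, and none of these was called.

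Other gene families that neurons are not known to use were mixed. Called higher and lower in Balb/c were 13 and 0 of 38 keratin associated proteins, 2 and 0 of 6 taste receptors, 3 and 0 of 4 trace amine and formyl peptide receptors, 4 and 3 of 23 defensins, and 4 and 1 of 17 placental prolactins. The shares called higher were 34.2%, 33.3%, 75%, 17.4% and 23.5%, beside 21.1% of all genes, so that those of defensins and prolactins lay near the share of all genes. The taste and trace amine lists hold few genes. The median difference relative to the median gene was 0.28, 0.33, 1.09, 0.18 and 0.09 in that order, against 0.47 for the receptors. Keratin associated proteins, structural proteins of hair, had array medians of 6.83 ± 0.21 in Balb/c and 6.23 ± 0.27 in C57BL/6 (SD, n = 5 and 14).

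**Figure D5:**
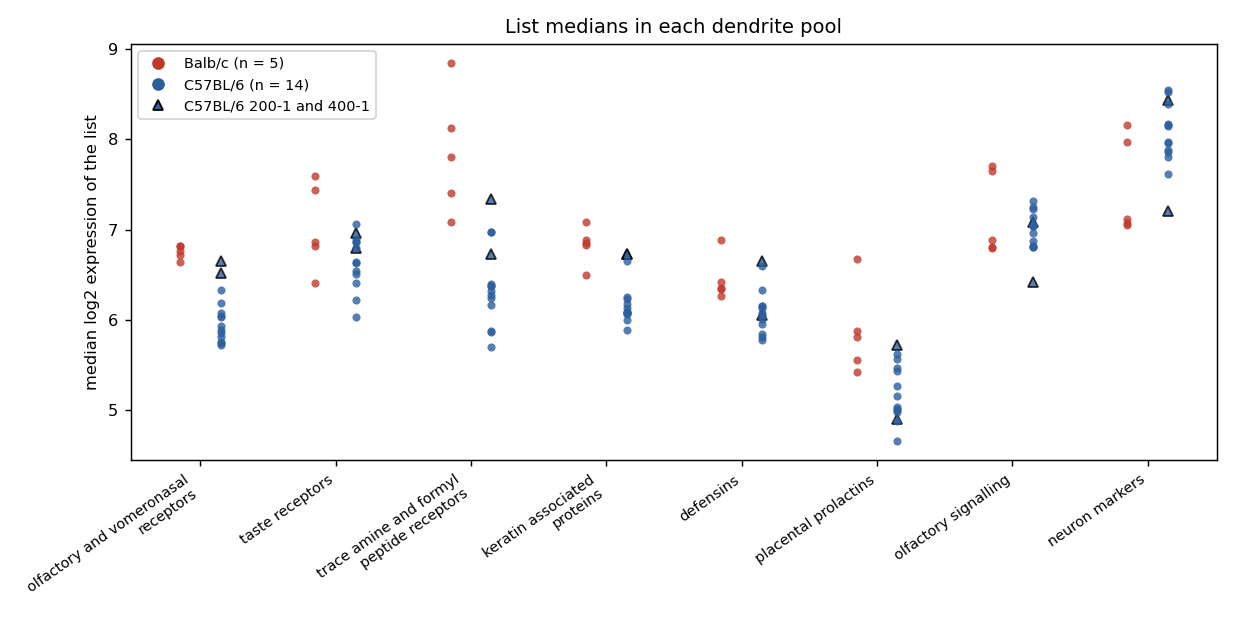
Median log2 expression of 8 gene lists on each array, Balb/c in red (5 arrays) and C57BL/6 in blue (14 arrays), with triangles for C57BL/6 200-1 and 400-1. For the receptors the triangles are the 2 highest C57BL/6 points, and the same holds for the keratin associated proteins, at 6.73 each. Neuron markers show no such order, with medians of 7.05 to 8.16 in Balb/c and 7.20 to 8.55 in C57BL/6.

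Markers of cells that the cultures could hold moved in both directions. Of 13 measured neuron markers 1 was called higher in Balb/c, Camk2a, and 5 lower, Gria1, Gria2, Map2, Nefl and Neurod6. The shares were 7.69% and 38.5%, beside 21.1% and 11.4% of all genes, and the median difference relative to the median gene was -0.998. The log2 of their summed linear signal, in which Nrgn alone had means of 13.32 and 13.03, ran from 13.43 to 14.28 in Balb/c and from 13.42 to 14.20 in C57BL/6. Microglia markers had 2 of 6 higher (Csf1r and Itgam) and 0 lower, with sums of 10.79 to 11.28 and 9.88 to 11.34. Their median level moved with that of the receptors, at 7.32 to 8.36 in Balb/c and 7.54 and 7.25 in C57BL/6 200-1 and 400-1. In the other 12 C57BL/6 arrays it was 6.05 to 7.08. The single markers did not all follow. Balb/c minus C57BL/6 differences of the 4 uncalled ones were 0.87 (P2ry12), 0.25 (Cx3cr1), 0.05 (Aif1) and -0.91 (Tyrobp). Astrocyte markers had 0 higher and 1 of 7 lower, with sums of 9.32 to 10.92 and 9.56 to 10.78, and oligodendrocyte markers 2 of 6 higher and 0 lower, with 9.22 to 10.14 and 9.62 to 10.21. The array reports no value of 0, and the part of these cells in the receptor values was not tested.

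For use as a gauge, a ceiling was set at the 95th percentile of the receptors. The same percentile of all genes would leave 5.0% of genes above it, so a low share is partly built in. The 95th percentile of the 71 receptors lay between 8.44 and 10.003 on the 19 arrays, and 5.0% to 16.1% of all genes lay above it. In the median array this share was 7.1% in Balb/c and 9.4% in C57BL/6. The number rests on 71 genes of which 8 were high, and with the 90th percentile as the ceiling the shares were 13.6% and 20%. Over the 19 arrays that share ran from 8.9% to 38.3%, so the position of the ceiling decides how many genes pass.

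Across arrays, 312 genes lay above the ceiling on all 19 and 12986 on none. Of the 13 neuron markers, 1 to 4 lay above it in a Balb/c array and 2 to 6 in a C57BL/6 array. Nrgn, which encodes neurogranin of the postsynaptic side, was above it on all 19 arrays, with means of 13.32 and 13.03. Syn1 and Rbfox3 were above it on 14 arrays each, and Map2, the dendrite marker, on 0, with means of 6.72 in Balb/c and 7.95 in C57BL/6. Most neuron markers therefore lay below this ceiling, which stands near the top of the receptor values. Their array medians were 7.05 to 8.16 in Balb/c and 7.20 to 8.55 in C57BL/6. Those of the receptors were lower, at 6.64 to 6.82 and 5.73 to 6.65.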

How the data were processed

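RNA of each pool was amplified in several rounds, labelled and hybridised to 1 array. The authors deposited log2 values per probe set, which they made with RMA, version 2.0 by the submitters' processing notes, taking the upper decile of each set's probes. Several rounds of amplification can shorten RNA towards its 3′ end, which bears on probe sets far from it. No genome build is stated for the probe annotation.

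The array held 45101 probe sets, of which 34945 carried 1 symbol, 932 several, 9160 none and 64 were controls. All 71 receptors matched the RefSeq gene table of GRCm38.p6, 2 of them as pseudogenes. Their 80 probe sets were used, and 12 further receptor probe sets with several symbols were not. Promoter windows came from RefSeq.

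Strain, pool size slope and interaction were fitted over all genes in R 4.3.3 by limma 3.58.1 (lmFit, then eBayes) and adjusted by Benjamini-Hochberg, without a filter on dim genes. Array number limits the precision. The fitting was tested on simulated data. Groups came from the sample titles. Alternatives covered normalization, the value per gene, filters, batches, tests and left-out arrays. The last pair, the fit among genes at or below the median gene and levels without C57BL/6 200-1 and 400-1, was added after seeing the data.

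The members and gene lists were chosen with earlier results of these data known. Genes were named by rule: the 8 highest and 4 lowest receptors, up to 8 called per direction by p (3 where none was called), the 4 with the largest SD in C57BL/6, 3 slopes per direction, the receptors reported outside the nose and the 3 highest genes of each signalling list. Python 3.11.15, pandas 2.3.3 and numpy 2.4.6 were used.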

Additional observations from a re-analysis of the deposited data

Results flagged for a closer look

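A value was singled out where the gap between the highest or lowest array and the next exceeded Dixon's critical value at 95% within a group of 4 to 10 arrays. This was examined in 128 groups, of which chance picks about 1 in 20, and 7 were singled out. Olfr976 appeared in 3 of them. It measured 11.45 in Balb/c 100-1, where the nearest Balb/c array had 5.35. It was low in C57BL/6 200-4 at 4.66 among pools of 200 (nearest 5.41) and in C57BL/6 400-1 at 4.46 among pools of 400 (nearest 5.45). Olfr140 measured 6.71 in Balb/c 200-1, where the nearest of the strain had 7.86. Vmn2r26 measured 4.71 in C57BL/6 100-4, below 5.397 in the nearest pool of 100. Vmn1r54 measured 6.91 in C57BL/6 400-1 and no more than 5.64 in the other pools of 400. The median of all receptors was 6.52 in that same array and at most 5.94 in the other pools of 400. What lies behind these values was not tested.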

How the results depend on the processing

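The count of 31 receptors called higher in Balb/c was 19 after median centring and range scaling, 3 among genes above the median gene alone, 0 in the long format and 1 with the format as a block. Replicate numbers gave no general pairing of the arrays. Of 27 same-numbered pairs of arrays, 5 had correlated deviations above 0.1. The range was -0.32 to 0.52, against -0.38 to 0.32 for other pairs, and the 0.52 joined C57BL/6 200-1 and 400-1. The Balb/c groups of 2 pools have mirrored deviations, so their pairs cannot inform on pairing. With the replicate block, 1 receptor (Olfr749) was called. Fewer arrays (long format) or fewer receptors (above the median gene) entered 2 of these fits, and for the others the cause was not tested. Leaving out each array in turn gave counts of 18 to 33, the lowest without Balb/c 400-1, 0 lower throughout, and a median relative to the median gene of 0.41 to 0.52. Over the other settings this median ran from 0.24 to 0.57. Quantile normalization gave 21, of which 20 were shared, and a mean receptor median of 6.62 in Balb/c. Shares of all genes called are not given for the alternatives in this paragraph. The changes in receptor counts therefore cannot be read as particular to the receptors. With the 90th percentile as the ceiling, 13.6% of genes in Balb/c and 20% in C57BL/6 lay above it. Slope counts stayed at 0 in every setting run. With 5 Balb/c arrays, smaller differences could not be resolved, and signals near the floor of the array carry no order.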

Other observations

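The 12 receptor probe sets with several symbols, which entered no comparison, had medians between 5.45 and 7.10 on the 19 arrays, against 5.73 to 6.82 for the 71 receptor genes.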
